A study of Mus musculus with 64 samples.

Results

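The 8 genes described here encode the transcription factors that specify and maintain skeletal muscle: the myogenic regulatory factors Myod1, Myog, Myf5 and Myf6, the satellite cell factor Pax7, and the MADS-box factors Mef2a, Mef2c and Mef2d. They were chosen by name from 55401 genes in the count table, with earlier results of these data known. All 8 passed the filter on low counts that left 15241 genes for testing. Their RNA was measured by mRNA sequencing of gastrocnemius, a calf muscle of mostly fast fibers, from mice that differed in genotype, time of day and treatment.

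HIF1α KO mice carried floxed Hif1a alleles and Cre recombinase under the human α-skeletal actin (HSA) promoter, which is active in muscle fibers, so satellite cells and other mononuclear cells were not the intended target. The fl/fl littermates carried the same floxed alleles without Cre. All mice were 12 to 18 weeks old, on a C57BL/6JBomTac background of 2 to 9 generations, and came from a 12 h light cycle. At zeitgeber time (ZT) 3, in the light phase, or at ZT15, in the dark phase, mice ran on a treadmill for 60 min at up to 16 m/min and an incline of 5% (exercised) or received a sham treatment (sedentary), and muscle was taken 3 h later. Each of the 8 groups held 4 female and 4 male mice, except that the exercised HIF1α KO group at ZT3 held 7 mice in the analysis because 1 library with 382 counts was left out.

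MyoD and Myf5 commit cells to the muscle lineage, and myogenin acts later, when myoblasts differentiate and fuse. Myf6, also called MRF4, is the member of this basic helix-loop-helix family that is most abundant in mature fibers, while Pax7 marks the satellite cells that lie on the fiber and supply new nuclei. The MEF2 proteins bind A/T-rich sites beside the E-boxes bound by myogenic regulatory factors, and calcium signals release them from class IIa histone deacetylases. MyoD is also known as a gene under the control of the muscle clock.

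Library depth ranged from 2359780 to 40377963 counts, with a median of 16236352. Levels are given as CPM, the count of a gene scaled by the TMM-adjusted size of its library, and 1 CPM stood for 2.55 to 44.9 counts. Fast myofiber markers summed to 76464 to 148320 CPM and slow myofiber markers to 346 to 3833 CPM per mouse. All 5 lymphocyte markers were at 0 in most libraries, and Pax3, a satellite cell marker, was at 0 in 21 of 63. Whole-gene Hif1a RNA was 36.4 CPM ± 6.31 (SD, n = 32) in fl/fl mice against 36.4 CPM ± 4.80 (SD, n = 31) in those without muscle HIF1α, and since the floxed allele removes only exon 2, this total did not check the genotype labels. Mice numbered 17 to 32 had a lower share of mitochondrial rRNA (median 1.84% of counts) than the other blocks of 16 mouse numbers (2.67% to 6.55%), and values within these blocks, which the labels do not name as a batch, are given beside the results.

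The members spanned a wide range of levels. Levels per kb of exon used the merged exons of all annotated isoforms, 1263 bp for Myf6 and 15715 bp for Mef2c. The merged length can exceed that of the transcripts present in muscle, which were not identified, so the order of members depends on it. Myf6 stood at 57.4 CPM per kb ± 12.0 (SD, n = 63) and Mef2c at 41.6 ± 3.73, and Myf6 was the higher in 59 of 63 mice. Mef2a (9.44 ± 1.77 CPM per kb) and Mef2d (9.24 ± 3.28) did not separate, with Mef2a the higher in 36 mice. Myod1 (4.80 ± 2.91 CPM per kb) and Myog (3.93 ± 1.71) were likewise not separated, with Myod1 the higher in 35 mice. Myf5 (0.793 ± 0.292 CPM per kb) and Pax7 (0.188 ± 0.0757) were lowest, and Myf5 exceeded Pax7 in 62 of 63 mice. Mef2b, the remaining MEF2 gene, was 1 of the listed genes that did not pass the low-count filter.

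The depth behind these levels differed between members. Mef2c had a median of 10766 counts per library and Myf6 1177, against 95 for Myod1, 75 for Myog, 24 for Myf5 and 16 for Pax7. Pax7 was under 10 counts in 12 libraries and Myf5 in 7, and both were at 0 in the same library, where a count of 0 allows up to 1.18 CPM (3 counts, counting error only). The median spread within groups was 8.88% of the mean for Mef2c, 16.3% for Myf6 and 17.9% for Mef2a, far above the counting error of 0.971% to 2.92% for these genes. Myod1 varied by 37.1% within groups against a counting error of 8.30%, and Mef2d by 35.1% against 3.34%. In Pax7 and Myf5 the counting error itself was 23.7% and 19.3%, beside within-group spreads of 37.4% and 33.3%.

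To determine which members followed the time of day, ZT15 was compared with ZT3 over the 4 combinations of genotype and treatment. ZT3 and ZT15 name the time of treatment throughout, and muscle was taken 3 h after it. Myod1 and Myog were higher at ZT15, Myod1 by 2.80-fold and Myog by 1.59-fold, and the other 6 members did not pass the test. Thus 2 of 8 members were called higher and 0 lower, where 4.09% of all 15241 genes tested were called higher and 3.92% lower. At an unadjusted p under 0.05, 4 members passed, all higher at ZT15, where 17.5% of all genes passed in either direction. Calls rest on an adjusted p under 0.1 in the quasi-likelihood test of edgeR, in a model that also held sex.

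Myod1 (ENSMUSG00000009471.4, chromosome 7, 46376474 to 46379099, plus strand, GRCm38) gave the largest difference of the 8. In sedentary fl/fl mice its lowest, median and highest values were 2.58, 3.80 and 9.80 CPM at ZT3 and 5.98, 14.001 and 20.001 CPM at ZT15. Exercised fl/fl mice ranged from 2.12 to 8.38 CPM (median 4.01) at ZT3 and from 5.44 to 18.5 CPM (median 9.23) at ZT15. These fl/fl groups overlapped at their edges, by single mice that were high at ZT3.

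In HIF1α KO mice the time groups of Myod1 did not overlap, by a narrow gap in exercised mice (5.23 against 5.38 CPM). The share of all genes without overlap was not computed. The difference in the time-of-day effect between the genotypes did not pass its own test, given with the interactions. Sedentary KO mice held 2.55, 5.55 and 8.54 CPM (lowest, median and highest) at ZT3 and 12.0, 14.6 and 19.7 CPM at ZT15. Exercised KO mice held 3.75, 4.09 and 5.23 CPM at ZT3 and 5.38, 10.8 and 20.5 CPM at ZT15. Over all mice, 23 of 32 at ZT15 exceeded the highest ZT3 mouse, and all 32 exceeded the ZT3 median.

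The averaged difference of Myod1 was 1.49 ± 0.13 on the log2 scale (SE, adjusted p = 1.74e-13 in edgeR), rank 9 by p among the 15241 genes. It was called in each combination, at 1.60 ± 0.25 in sedentary fl/fl (adjusted p = 5.94e-05 in edgeR), 1.38 ± 0.27 in exercised fl/fl (adjusted p = 0.0022 in edgeR), 1.45 ± 0.25 in sedentary KO (adjusted p = 0.000238 in edgeR) and 1.52 ± 0.26 in exercised KO mice (adjusted p = 0.000613 in edgeR). The share of all genes called higher in these single combinations was 1.08%, 0.571%, 0.295% and 0.446%. Within the 4 blocks of mouse numbers the difference in mean log2 CPM was 1.35, 1.60, 1.33 and 1.53. It appeared in both sexes: females averaged 4.46 CPM ± 1.495 (SD, n = 16) at ZT3 and 13.4 ± 4.40 (SD, n = 16) at ZT15, and males 4.89 ± 2.07 (SD, n = 15) and 12.8 ± 4.66 (SD, n = 16).

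**Figure D1:**
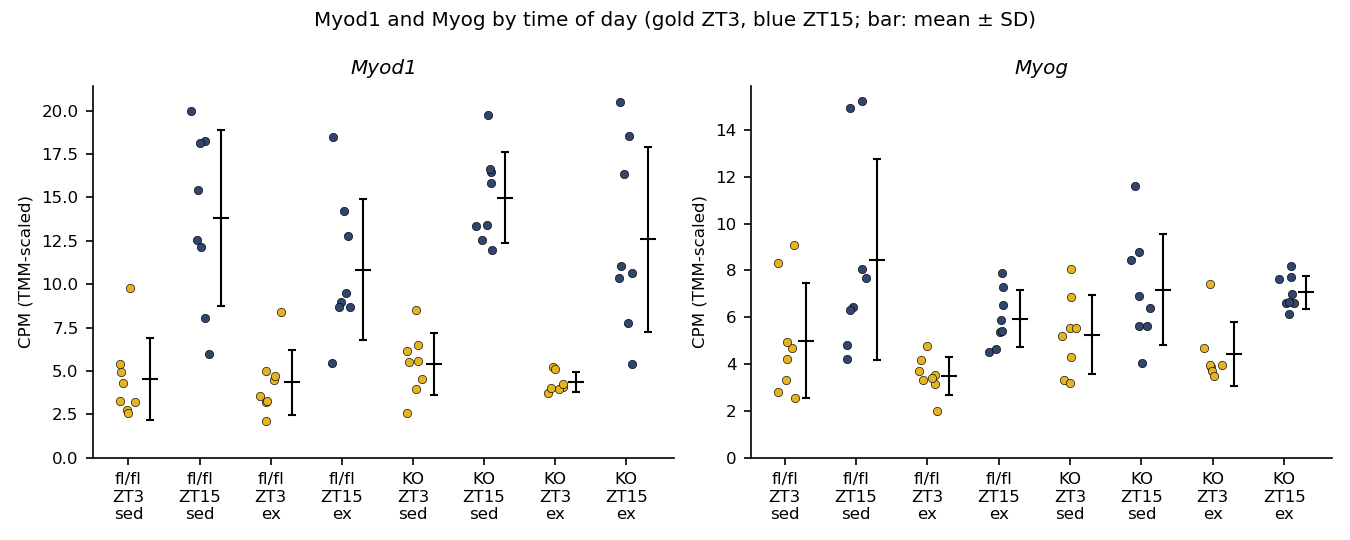
Level of Myod1 (left) and Myog (right) in CPM on a linear axis from 0, for each mouse of the 8 groups (n = 8, except 7 in exercised KO at ZT3), gold at ZT3 and blue at ZT15, with a bar for the mean ± SD. Group means of Myod1 lie between 4.34 and 5.41 CPM at ZT3 and between 10.8 and 15.0 CPM at ZT15, while those of Myog lie between 3.50 and 5.26 CPM and between 5.93 and 8.46 CPM.

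Myog (ENSMUSG00000026459.5, chromosome 1, 134289989 to 134292548, plus strand, GRCm38) moved the same way with more overlap. Its lowest, median and highest values were 1.97, 3.97 and 9.10 CPM over 31 mice at ZT3 and 4.04, 6.61 and 15.2 CPM over 32 mice at ZT15. Only 3 ZT15 mice exceeded the highest ZT3 mouse, but all 32 exceeded the ZT3 median and 16 of 31 ZT3 mice lay below every ZT15 mouse. The averaged difference was 0.67 ± 0.11 (SE, log2, adjusted p = 1.53e-05 in edgeR), rank 94 by p, and 0.77, 0.60, 0.28 and 0.96 within the blocks. In single combinations it was 0.81 ± 0.22 in sedentary fl/fl (adjusted p = 0.0506 in edgeR), 0.72 ± 0.23 in exercised fl/fl (adjusted p = 0.148 in edgeR), 0.44 ± 0.21 in sedentary KO (adjusted p = 0.829 in edgeR) and 0.70 ± 0.22 in exercised KO mice (adjusted p = 0.183 in edgeR). The call in sedentary fl/fl mice depended on the model and passed in 7 of 10 alternatives (adjusted p 0.0176 to 0.176), while exercised fl/fl and exercised KO mice each passed in 2 of 10 (lowest adjusted p 0.00867 and 0.0815, both in edgeR) and sedentary KO mice in 0. The differences between these combinations did not pass their own tests, given with the interactions.

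The Myog promoter is shown because it is the window, among the members that followed time of day, for which a sequence was used here. MyoD and MEF2 proteins are known to act on E-boxes and an A/T-rich MEF2 site upstream of this gene. The 250 bases before the RefSeq start (GRCm38.p6, chr1:134289754-134290003, plus strand, 5′ to 3′) are printed with both matches to the E-box CANNTG and the match to the MEF2 core TANNNNTA in capitals:
Myog: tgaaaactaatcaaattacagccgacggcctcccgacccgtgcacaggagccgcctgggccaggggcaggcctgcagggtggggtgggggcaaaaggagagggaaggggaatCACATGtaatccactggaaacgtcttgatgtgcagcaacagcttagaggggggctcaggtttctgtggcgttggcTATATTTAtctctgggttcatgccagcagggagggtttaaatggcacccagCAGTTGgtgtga

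The E-boxes begin 138 and 12 bases before the start, and the MEF2 core begins 63 bases before it. On both strands, 72.3% of all 32851 promoter windows of 300 bases held an E-box and 37.3% held a MEF2 core, so neither match is rare. The clock E-box CACGTG, which is a form of CANNTG and contains the hypoxia response core ACGTG, matched in none of the 8 windows of the 6 members that had one, against 7.15% of all windows, and ACGTG and the D-box TTANNTAA also had no match (19.6% and 6.0% of all windows). Myod1 and Myf6 had no window.

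Of the members that did not pass by time of day, Mef2d was 50.1 CPM ± 16.98 (SD, n = 31) at ZT3 and 60.3 CPM ± 20.9 (SD, n = 32) at ZT15, a log2 difference of 0.27 ± 0.13 (adjusted p = 0.266 in edgeR). With these blocks in the model it was 0.28 and passed (adjusted p = 0.0255 in edgeR), and within blocks it was 0.22, 0.32, 0.41 and 0.16. Its sign differed between single combinations, none of which passed. In fl/fl mice it was 0.47 ± 0.25 (sedentary) and -0.34 ± 0.25 (exercised), and in KO mice 0.25 ± 0.25 and 0.67 ± 0.26. Myf6 differed by 0.11 ± 0.05 (adjusted p = 0.255 in edgeR). Mef2a, Mef2c, Myf5 and Pax7 gave log2 differences between -0.02 and 0.04.

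The partners of these factors were examined by list. Of 14 tested dimer partners and inhibitors of myogenic regulatory factors, 3 were called higher at ZT15 and 0 lower, with a list median of 0.06 log2 beside -0.00 over all genes. All 3 encode Id proteins, which bind E proteins and keep them from pairing with MyoD. Id2 was 2.48 CPM ± 0.834 (SD, n = 31) at ZT3 and 3.26 ± 0.954 (SD, n = 32) at ZT15 (0.37 log2, adjusted p = 0.0251 in edgeR), Id3 rose by 0.29 (adjusted p = 0.0348 in edgeR) and Id4 by 0.30 (adjusted p = 0.094 in edgeR). Id4 passed in 4 of the 9 alternative models that tested it (adjusted p 0.0694 to 0.246). The E protein genes Tcf3, Tcf4 and Tcf12 were not among the genes called. Macrophage markers, which were measured beside these lists, were higher at ZT15 in 6 of 6 cases with a median of 0.15 log2 and 0 calls, and summed to 77.4 to 233 CPM at ZT3 and 82.1 to 203 CPM at ZT15. Slow myofiber markers were lower at ZT15 in 7 of 7 cases (median -0.11 log2, 0 called), with sums of 410 to 3833 CPM and 346 to 2311 CPM. Red blood cell markers were lower in 5 of 5 (median -0.11, 0 called), with sums of 76.9 to 529 CPM and 73.4 to 286 CPM. The part of macrophages and red blood cells in the time-of-day differences was not tested.

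Of 19 tested MEF2 regulators, 2 were called higher at ZT15 and 0 lower, with a list median of 0.11 log2. Hdac4, a class IIa histone deacetylase that represses MEF2 targets, was 59.2 CPM ± 12.2 (SD, n = 31) at ZT3 and 77.3 ± 15.1 (SD, n = 32) at ZT15 (0.38 log2, adjusted p = 9.4e-05 in edgeR). Vgll2, a muscle cofactor of TEAD and MEF2 proteins, rose by 0.42 (adjusted p = 0.0792 in edgeR) and passed in 7 of 10 alternative models (adjusted p 0.00252 to 0.182). Among other muscle transcription factors, Tbx15, a T-box factor of glycolytic fibers, rose by 0.21 (adjusted p = 0.000389 in edgeR). Sox6, a repressor of slow-fiber genes, fell by 0.14 (adjusted p = 0.0214 in edgeR).

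Most listed targets of these factors did not follow time of day with Myod1 and Myog. Of 20 tested target genes, 2 were called higher at ZT15 and 0 lower, with a list median of 0.05 log2, and both encode inhibitors of cyclin-dependent kinases. Cdkn1a (p21) was 4.05 CPM ± 2.26 (SD, n = 31) at ZT3 and 6.11 ± 3.77 (SD, n = 32) at ZT15 (0.64 log2, adjusted p = 0.0255 in edgeR), and Cdkn1c (p57) rose by 0.22 (adjusted p = 0.011 in edgeR). Ckm, the muscle creatine kinase, differed by -0.03 (adjusted p = 0.856 in edgeR), Des by -0.01 (adjusted p = 0.95 in edgeR) and Acta1 by 0.10 (adjusted p = 0.415 in edgeR). Of 16 tested genes of the neuromuscular synapse and of denervated muscle, Dok7, an activator of the kinase MuSK, was the single call (0.26 log2 higher, adjusted p = 0.0199 in edgeR).

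To examine the response to a single run, exercised mice were compared with sedentary mice 3 h after treatment, over the 4 combinations of genotype and time of day. Myf6 was higher in exercised mice and Pax7 was lower. These were 1 member called higher, beside 2.06% of all genes, and 1 called lower, beside 0.781% of all genes.

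Myf6 (ENSMUSG00000035923.4, chromosome 10, 107492853 to 107494737, minus strand, GRCm38) lies 6719 bp from Myf5 on the same strand. Its lowest, median and highest values were 47.7, 63.6 and 92.0 CPM in 32 sedentary mice and 54.5, 79.8 and 109 CPM in 31 exercised mice. The ranges overlapped, but 29 of 31 exercised mice lay above the sedentary median and 29 of 32 sedentary mice below the exercised median. The averaged difference was 0.36 ± 0.05 (SE, log2, 1.28-fold, adjusted p = 5.09e-06 in edgeR), rank 28 by p among 15241 genes.

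The rise of Myf6 had a similar size in every combination, at 0.32 ± 0.11 and 0.42 ± 0.11 in fl/fl mice at ZT3 and ZT15 and 0.39 ± 0.11 and 0.30 ± 0.11 in KO mice, but none of these passed alone (adjusted p = 0.226, 0.205, 0.187 and 0.597 in edgeR). In the single combinations 0 of 8 members passed in edgeR, where 0.236%, 0.0%, 0.131% and 0.0591% of all genes did. At an unadjusted p under 0.05 there were 3, 2, 2 and 1 members in the same order, where 13.8%, 9.23%, 5.07% and 5.54% of all genes passed, and DESeq2 called 1 member, in fl/fl mice at ZT15. Within the blocks of mouse numbers the difference of Myf6 was 0.45, 0.44, 0.15 and 0.32.

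**Figure D2:**
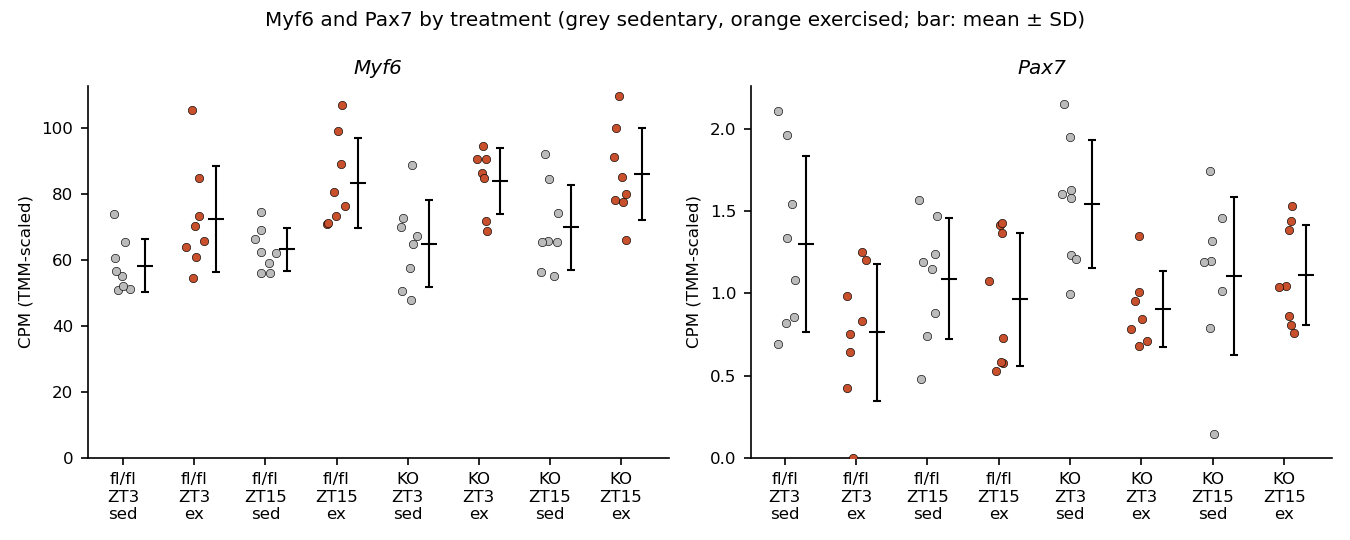
Level of Myf6 (left) and Pax7 (right) in CPM on a linear axis from 0, for each mouse of the 8 groups, grey for sedentary and orange for exercised mice, with a bar for the mean ± SD. Group means of Myf6 lie between 58.2 and 69.8 CPM in sedentary and between 72.3 and 85.8 CPM in exercised groups, and those of Pax7 between 1.09 and 1.55 CPM and between 0.762 and 1.11 CPM.

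Pax7 (ENSMUSG00000028736.13, chromosome 4, 139737062 to 139833528, minus strand, GRCm38) held a lowest, median and highest value of 0.144, 1.22 and 2.16 CPM in sedentary and 0, 0.864 and 1.53 CPM in exercised mice. No exercised mouse exceeded the sedentary range, and 8 of 31 lay above the sedentary median. The averaged difference was -0.46 ± 0.14 (SE, log2, adjusted p = 0.0587 in edgeR), with -0.60 ± 0.28 and -0.79 ± 0.27 in fl/fl and KO mice at ZT3 and -0.33 ± 0.28 and -0.12 ± 0.27 at ZT15, none of which passed alone. The difference between the times of day did not pass (0.46 ± 0.27, adjusted p = 0.9 in edgeR). It was -0.32, -0.39, -0.70 and -0.26 within the blocks.

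In bulk muscle, fewer satellite cells and less Pax7 RNA per cell cannot be told apart. Of the 14 satellite cell markers tested, 9 were lower and 5 higher in exercised mice, with a median of -0.03 log2. Pax7 was the single marker called lower, and Sdc4, a syndecan that other cells also carry, was called higher (0.38 log2, adjusted p = 0.000339 in edgeR). Calcr, the calcitonin receptor of quiescent satellite cells, differed by -0.37 (adjusted p = 0.511 in edgeR) and Cdh15, M-cadherin, by -0.04 (adjusted p = 0.901 in edgeR). The summed markers ranged from 228 to 283 CPM in sedentary and from 232 to 304 CPM in exercised mice. Cd34 (mean 85.1 CPM over all mice), Itga7 and Sdc4 (45.6 CPM) were the largest terms of this sum, while Calcr averaged 0.727 CPM. The sum therefore says little about markers as sparse as Pax7 and Calcr, and the number of satellite cells was not tested.

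Slow myofiber markers moved with the exercise comparison: all 7 were higher in exercised mice, with a median of 0.30 log2, and 0 of the 7 were called. Their sum ranged from 354 to 1773 CPM in sedentary and from 346 to 3833 CPM in exercised mice. All 5 Schwann cell markers were also higher (median 0.18 log2, 0 called), with sums of 33.8 to 124 CPM in sedentary and 37.7 to 181 CPM in exercised mice, and all 5 red blood cell markers were lower (median -0.14, 0 called), with sums of 73.4 to 529 CPM and 76.9 to 286 CPM. The part of these Schwann and red blood cell markers in the exercise differences was not tested. With a slow myofiber score as a covariate Pax7 was -0.39 and did not pass (adjusted p = 0.188 in edgeR), while Myf6 kept its call.

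The other members did not pass in the averaged exercise comparison. Myog was 6.47 CPM ± 3.08 (SD, n = 32) in sedentary and 5.26 CPM ± 1.72 (SD, n = 31) in exercised mice (-0.33 ± 0.11 log2, adjusted p = 0.122 in edgeR). Its adjusted p fell under 0.1 with DESeq2 (0.0922), with the block (0.0901 in edgeR) and with the mitochondrial rRNA share (0.0928 in edgeR). Myod1 differed by -0.28 ± 0.13 (adjusted p = 0.378 in edgeR), Myf5 by -0.10 ± 0.13, Mef2c by -0.06 ± 0.03, and Mef2a and Mef2d by less than 0.01 in size.

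**Figure D3:**
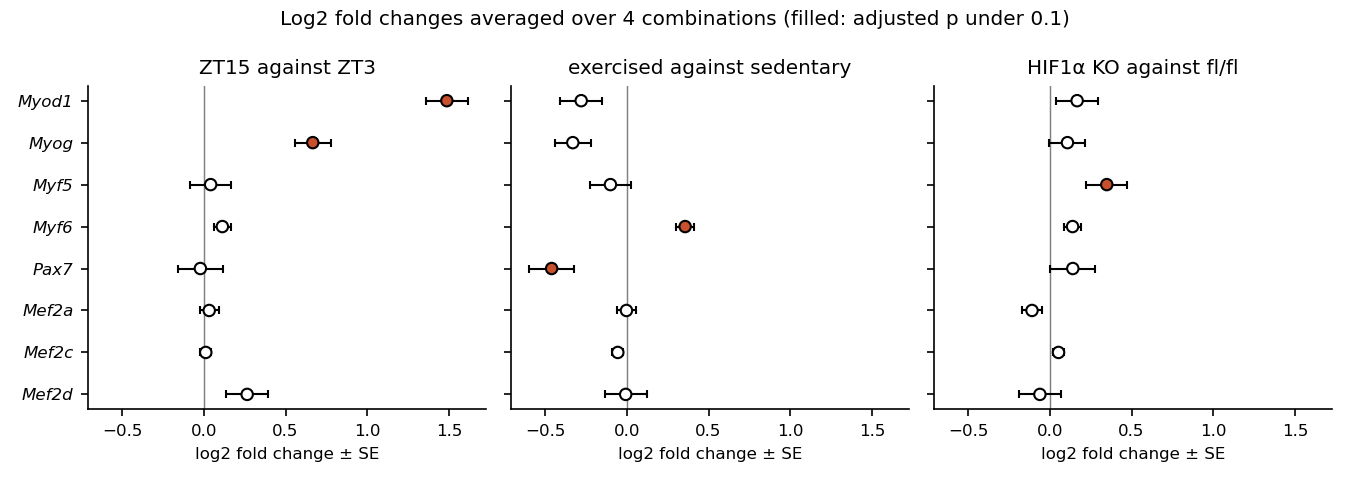
Log2 fold change (x axis, with its SE as a bar) of the 8 members (y axis) for ZT15 against ZT3, exercised against sedentary, and HIF1α KO against fl/fl, each averaged over 4 combinations, with filled points for an adjusted p under 0.1 in edgeR. Filled points are Myod1 (1.49) and Myog (0.67) by time of day, Myf6 (0.36) and Pax7 (-0.46) by exercise, and Myf5 (0.35) by genotype.

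Several genes of the muscle lists rose in exercised mice. Among 20 target genes, 2 were higher and 0 lower, with a list median of 0.01 log2: Xirp1, an actin-binding protein of injured and loaded fibers, was 135 CPM ± 69.7 (SD, n = 32) in sedentary and 239 CPM ± 112 (SD, n = 31) in exercised mice (0.85 log2, adjusted p = 0.00253 in edgeR). Lmod2, a leiomodin of thin filaments, rose by 0.46 (adjusted p = 0.00744 in edgeR). Of 16 synapse and denervation genes, 3 were higher and 0 lower, and they were Musk (0.58 log2, adjusted p = 0.000143 in edgeR), the receptor kinase of the synapse, Dok7 (0.29, adjusted p = 0.0132 in edgeR) and Gadd45a (0.28, adjusted p = 0.0292 in edgeR). Without the sex term Musk did not pass (0.48, adjusted p = 0.207 in edgeR).

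Of the factors that act beside the members, Eya4, a transcriptional coactivator, was 72.2 CPM ± 14.5 (SD, n = 32) in sedentary and 89.0 CPM ± 15.1 (SD, n = 31) in exercised mice (0.31 log2, adjusted p = 4.96e-06 in edgeR), and Six4 fell by 0.18 (adjusted p = 0.0721 in edgeR, past the threshold in 8 of 10 alternatives), so that 1 of 17 other muscle transcription factors was higher and 1 lower. Among MEF2 regulators 1 of 19 was called, Rcan1, a calcineurin inhibitor (0.43 log2 higher, adjusted p = 0.0236 in edgeR), which did not pass without the sex term (0.39, adjusted p = 0.251 in edgeR). Among dimer partners and inhibitors 1 of 14 was called, Msc, or musculin, a repressor of MyoD (0.48 log2 higher, adjusted p = 0.0155 in edgeR).

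To assess whether loss of muscle HIF1α altered the members, HIF1α KO mice were compared with fl/fl mice over the 4 pairs of matched groups. Myf5 was the single member called, and it was 1.27-fold higher in KO mice. That was 1 of 8 called higher and 0 lower, beside 4.68% of all genes called higher and 3.58% lower. Among listed genes outside the members, Musk and Dach2 were lower in KO mice.

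Myf5 (ENSMUSG00000000435.1, chromosome 10, 107482908 to 107486134, minus strand, GRCm38) held a lowest, median and highest value of 0, 1.39 and 2.51 CPM in 32 fl/fl mice and 0.943, 1.86 and 3.09 CPM in 31 KO mice. The ranges overlapped, with 23 of 31 KO mice above the fl/fl median. The difference was 0.35 ± 0.13 (SE, log2, adjusted p = 0.0961 in edgeR) and lay close to the threshold: of the 9 alternative models that tested it, 1 kept the adjusted p under 0.1, and the adjusted p ranged over them from 0.0772 (DESeq2) to 0.172. Within the blocks of mouse numbers it was 0.16, 0.35, 0.91 and 0.09, and in the single combinations it ranged from 0.19 to 0.47 with no call.

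The other members gave log2 differences between KO and fl/fl mice of 0.14 ± 0.05 for Myf6 (adjusted p = 0.123 in edgeR), 0.17 ± 0.13 for Myod1, 0.14 ± 0.14 for Pax7, 0.11 ± 0.11 for Myog, 0.05 ± 0.03 for Mef2c, -0.06 ± 0.13 for Mef2d and -0.11 ± 0.06 for Mef2a. Mean levels of Myf6 were 69.2 CPM ± 14.8 (SD, n = 32) in fl/fl and 75.8 CPM ± 15.1 (SD, n = 31) in KO mice. In each single combination 0 of 8 members passed in edgeR, where 0.4% (sedentary) and 1.43% (exercised) of all genes did at ZT3 and 0.0459% and 0.4% at ZT15. At an unadjusted p under 0.05 there were 0 members in sedentary mice at either time and 1 in exercised mice at each time, where 6.81% and 17.4% of all genes passed at ZT3 and 10.6% and 7.41% at ZT15, and DESeq2 called 0.

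Of 16 tested synapse and denervation genes, 2 were called higher and 3 lower in KO mice, with a list median of -0.01 log2. Musk was 50.8 CPM ± 25.7 (SD, n = 32) in fl/fl and 28.0 CPM ± 12.7 (SD, n = 31) in KO mice (-0.80 log2, adjusted p = 1.23e-07 in edgeR). Dach2, a corepressor that represses Myog in innervated muscle, was 4.16 CPM ± 2.11 (SD, n = 32) and 2.30 CPM ± 1.43 (SD, n = 31) (-0.85 log2, adjusted p = 0.00134 in edgeR). Myh8, the perinatal myosin, fell by 0.46 (adjusted p = 0.0448 in edgeR), while Chrne, the adult subunit of the acetylcholine receptor, rose by 0.23 (adjusted p = 0.0255 in edgeR). Gadd45a, a gene induced in denervated muscle, also rose by 0.23 (adjusted p = 0.0758 in edgeR).

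Schwann cell markers moved with the same comparison. All 5 were lower in KO mice, with a median of -0.42 log2, and 3 of the 5 were called. Their sum ranged from 38.7 to 181 CPM in fl/fl and from 33.8 to 157 CPM in KO mice. Markers of several other cell types were also mostly lower in KO mice. All 6 macrophage markers were lower (median -0.13 log2, 0 called), with sums of 79.4 to 233 CPM in fl/fl and 77.4 to 151 CPM in KO mice. Of 6 fibro-adipogenic progenitor markers 5 were lower and Pdgfra was called (median -0.10), with sums of 1016 to 2886 CPM and 917 to 2066 CPM. Of 5 smooth muscle and pericyte markers 3 were lower and 2 higher (median -0.10), and Myh11 and Acta2 were called lower. Their sums were 376 to 607 CPM and 395 to 571 CPM. Of 6 endothelial markers 5 were lower (median -0.08, 0 called), with sums of 167 to 270 CPM and 169 to 266 CPM. Red blood cell markers were higher in KO mice in 4 of 5 cases (median 0.04, 0 called), as were fast myofiber markers in 5 of 8 (median 0.04, 0 called). The part of these cell types in the genotype differences was not tested.

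Among 20 target genes, 1 was higher and 2 lower in KO mice, with a list median of 0.02 log2. Actc1, the cardiac actin also made in young and regenerating muscle, was 279 CPM ± 230 (SD, n = 32) in fl/fl and 370 CPM ± 146 (SD, n = 31) in KO mice (0.68 log2, adjusted p = 0.0286 in edgeR), but 0.42 without the sex term (adjusted p = 0.373 in edgeR). Mstn, which encodes the growth inhibitor myostatin, fell by 0.22 (adjusted p = 0.0736 in edgeR), and Cdkn1c fell by 0.16 (adjusted p = 0.0977 in edgeR). Mstn passed in 8 of 10 alternative models (adjusted p 0.0108 to 0.161) and Cdkn1c in 5 of 10 (0.0557 to 0.216). Of 19 MEF2 regulators, Camk2d, a calcium-activated kinase, was the single call (-0.18 log2, adjusted p = 0.00248 in edgeR), and of 14 dimer partners and inhibitors Id4 (-0.36, adjusted p = 0.0418 in edgeR) and Zeb1 (-0.09, adjusted p = 0.0876 in edgeR) were lower. Zeb1 passed in 5 of 10 alternative models (adjusted p 0.0339 to 0.349) and Id4 in 8 of 9. Of 17 other muscle transcription factors 0 were called.

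Whether the factors acted together was tested by 4 interaction terms. In edgeR 0 of 8 members passed in each, as did 0.0% of all genes, and DESeq2 also called 0 members. At an unadjusted p under 0.05 there were 0 members for genotype by time of day, genotype by exercise and time of day by exercise, and 1, Mef2d, for the three-way term (1.23 ± 0.51 log2, adjusted p = 0.295 in edgeR). Of all genes, 4.25%, 2.01%, 4.25% and 14.4% passed that unadjusted level in the same order. Mice 17 to 32, in which Mef2d averaged lowest (33.4 CPM), were spread unevenly over the exercised groups. They were 0 and 3 of the fl/fl mice at ZT3 and ZT15, and 3 and 2 of the KO mice. The part of this placement in the three-way value of Mef2d was not tested. For Myod1 the difference in the time-of-day effect between KO and fl/fl mice was -0.01 ± 0.25 (adjusted p = 1.0 in edgeR), and for Myog it was -0.19 ± 0.22 (adjusted p = 0.981 in edgeR). The difference of the Myf6 exercise effect between genotypes was -0.02 ± 0.11 (adjusted p = 1.0 in edgeR).

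None of the 3 MEF2 genes was called by time of day, exercise or genotype in the main averaged comparisons, and Mef2a and Mef2d averaged lowest in mice 17 to 32. Mef2d (ENSMUSG00000001419.17, chromosome 3, 88142372 to 88172086, plus strand, GRCm38) ranged from 15.7 to 118 CPM, 7.49-fold, while its 8 group means lay between 43.3 and 69.3 CPM. In mice numbered 17 to 32 it averaged 33.4 CPM ± 8.81 (SD, n = 16), and in the other blocks 55.2 to 66.7 CPM. Mef2a (ENSMUSG00000030557.17, chromosome 7, 67231163 to 67372858, minus strand, GRCm38) ranged from 85.7 to 201 CPM, and averaged 113 CPM ± 19.2 (SD, n = 16) in mice 17 to 32 and 139 to 159 CPM in the others. Mef2c (ENSMUSG00000005583.16, chromosome 13, 83504034 to 83667080, plus strand, GRCm38) was the steadiest member, at 509 to 803 CPM over all mice.

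Mef2a and Mef2d tracked the share of counts on mt-Rnr1 and mt-Rnr2, which encode mitochondrial rRNA, the largest relations among 16 tested between the 8 members and 2 measures of composition. For Mef2d, Pearson's r with the log2 share was 0.84 and Spearman's rho 0.79 (each with permutation p = 1e-05, the smallest that 100000 shuffles can give, and adjusted p = 8e-05). Without the 2 mice farthest from the median share r was 0.82, and within the blocks it was 0.08, 0.76, 0.87 and 0.36, so the relation was weak in mice 1 to 16. For Mef2a r was 0.79 and rho 0.75 (permutation p = 1e-05 for each, adjusted p = 8e-05), 0.76 without the 2 farthest mice, and 0.54, 0.68, 0.81 and 0.25 within blocks. With group, sex and block removed, r remained 0.67 for both (permutation p = 1e-05, adjusted p = 8e-05). Mef2c had r = -0.33 and rho = -0.35 (permutation p = 0.00777 and 0.00608, adjusted p = 0.0311 and 0.0243), -0.24 without the 2 farthest mice, and 0.05 with group, sex and block removed (permutation p = 0.688). The part of RNA quality or library preparation in these relations was not tested.

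**Figure D4:**
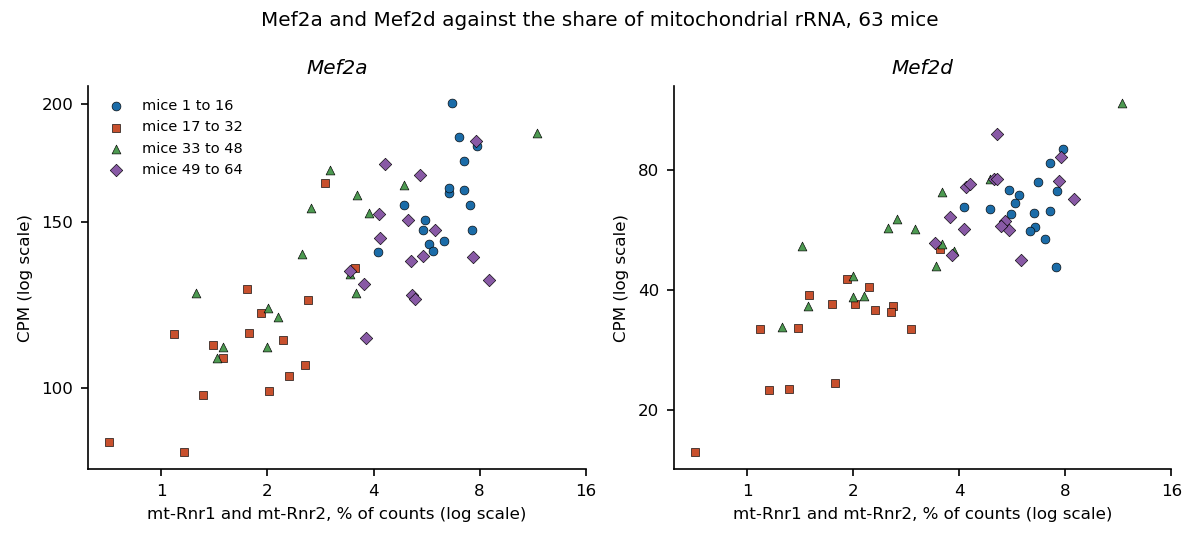
CPM of Mef2a (left) and Mef2d (right) in each of 63 mice against the share of counts on mt-Rnr1 and mt-Rnr2 in percent, both axes on a log scale, with color and shape for the 4 blocks of 16 mouse numbers. Mice 17 to 32 lie low on both axes, with a median share of 1.84% and mean levels of 113 CPM for Mef2a and 33.4 CPM for Mef2d.

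The Mef2a promoter is shown because its start overlaps a match to the MEF2 site pattern YTAWWWWTAR, a form of the sequence that MEF2 proteins bind. In it Y is C or T, W is A or T, and R is A or G. The match of 10 bases, in capitals, begins 2 bases before the RefSeq start within the stretch from 100 bases before to 10 bases from the start (GRCm38.p6, chr7:67372849-67372958, minus strand, 5′ to 3′). This pattern was found in 3.19% of all 32851 windows, and in no window of the other members. The A/T-rich stretch around the Myog core printed above misses the pattern at its last base, so no match does not mean that Myog lacks a MEF2 site.
Mef2a: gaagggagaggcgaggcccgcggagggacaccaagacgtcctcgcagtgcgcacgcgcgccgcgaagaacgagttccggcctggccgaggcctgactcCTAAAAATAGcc

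Members were also compared with each other over the 63 mice, in 28 pairs. In log2 CPM, 6 pairs passed an adjusted permutation p under 0.1 by Pearson's r, 5 of them positive, and 10 passed by Spearman's rho, 5 positive and 5 negative. Myod1 and Myog had r = 0.54 and rho = 0.58 (permutation p = 1e-05, adjusted p = 0.00014 for each), 0.51 without the 2 mice farthest from the median of Myod1 and 0.43 to 0.69 within blocks. Since both followed time of day, the relation was computed again with group and sex removed, where r was 0.08 (permutation p = 0.533, adjusted p = 0.648), so it did not hold among mice of the same group.

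Mef2a and Mef2d had r = 0.75 and rho = 0.69 (permutation p = 1e-05, adjusted p = 0.00014 for each), 0.69 without the 2 farthest mice and 0.67 with group, sex and block removed. Mef2c and Mef2d had r = -0.44 and rho = -0.42 (permutation p = 0.00031 and 0.00074, adjusted p = 0.00289 and 0.00691), but -0.14 with group, sex and block removed (permutation p = 0.271). Myf5 and Pax7 had r = 0.50 and rho = 0.14 (permutation p = 0.00283 and 0.28) and did not pass by rho (adjusted p = 0.462), and r was 0.12 without the 2 farthest mice and 0.10 without the 3 libraries under 5000000 counts, so this relation rested on those libraries. Myf5 with Mef2c (r = 0.35, rho = 0.38, permutation p = 0.0054 and 0.00186, adjusted p = 0.0302 and 0.013) and Myod1 with Mef2d (r = 0.31, rho = 0.36, permutation p = 0.0129 and 0.00403, adjusted p = 0.06 and 0.0226) did not pass with group, sex and block removed (r = 0.09 and 0.24).

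**Figure D5:**
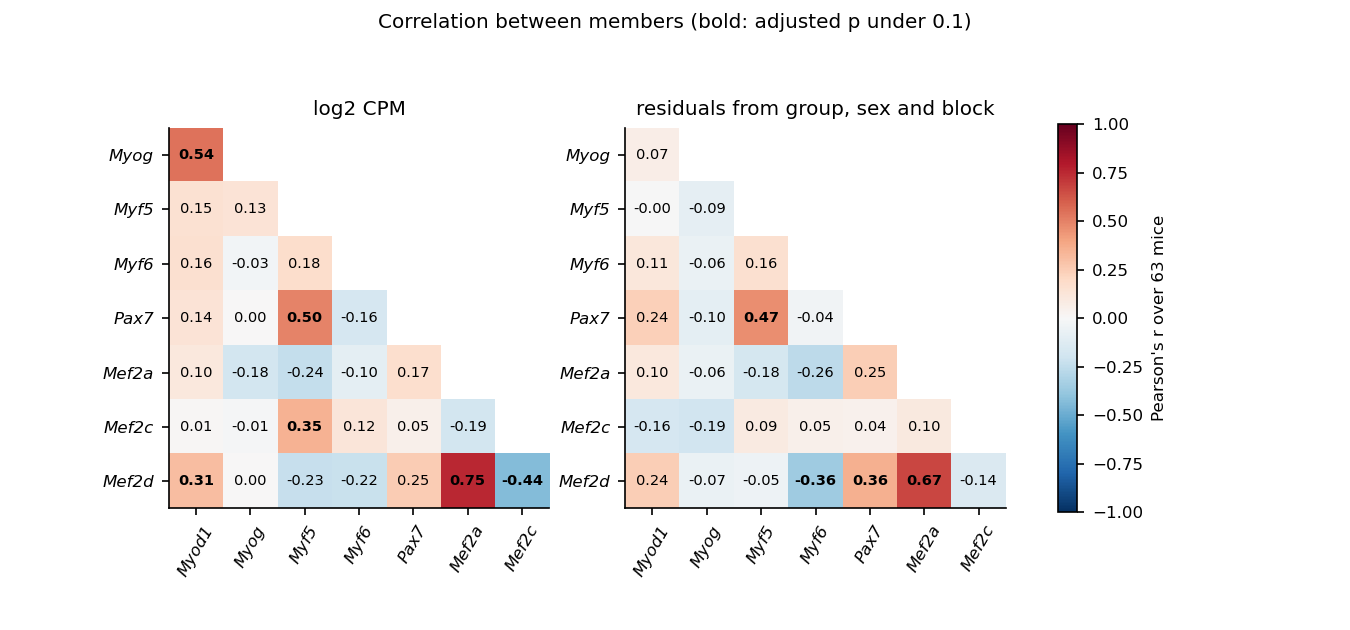
Pearson's r between the members over 63 mice, in log2 CPM (left) and after removal of group, sex and block of mouse numbers (right), with red for positive and blue for negative values and bold type for an adjusted permutation p under 0.1. The value for Mef2a and Mef2d stays high (0.75 and 0.67), and that for Myod1 and Myog falls from 0.54 to 0.07.

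The genes most like each member over the 63 mice, chosen as the highest r among all genes tested and so without a test, differed between members. For Myod1 they were the clock repressor Cry1 (r = 0.76), Plekhh3 (0.75) and Ypel2 (0.73). For Myog they were Ppp1r3b, a glycogen-targeting subunit of protein phosphatase 1 (r = 0.66), Rhou (0.58) and Gm43658 (0.58). For Myf6 they were Srxn1, sulfiredoxin (r = 0.68), Pfkfb4, a regulator of glycolysis (0.67), and Clic5 (0.66). These r values include any differences between groups, which were not removed here.

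For Mef2a the most alike were the nuclear long noncoding RNA Malat1 (r = 0.92), Zfp652 (0.89) and Pdpr (0.87), and for Mef2d they were Nfic, Camta2 and Synpo (0.95 each). Mef2c was most like Ppp1r3a, the muscle glycogen-targeting subunit of protein phosphatase 1 (r = 0.81), Ube2d3 (0.79) and CT030661.1 (0.77). Values for the sparse members Myf5 (Zxdb, 0.72, Rpl37rt, 0.71, and Cstf3, 0.71) and Pax7 (Mob3c, 0.61, Slc35c1, 0.59, and Casp9, 0.59) were lower as Spearman's rho (0.48 to 0.53 and 0.20 to 0.38).

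Sex, a covariate of the model, set 3 members apart, where 25.1% of all genes were called. Mef2a was 127 CPM ± 20.2 (SD, n = 32) in females and 150 CPM ± 26.4 (SD, n = 31) in males (-0.23 ± 0.06 log2, adjusted p = 0.00317 in edgeR), and Myf6 was 68.4 CPM ± 15.2 and 76.6 CPM ± 14.2 (-0.18 ± 0.05, adjusted p = 0.0106 in edgeR). Myog was higher in females, at 6.37 CPM ± 2.37 against 5.37 CPM ± 2.69 in males (0.29 ± 0.11, adjusted p = 0.054 in edgeR). Slow myofiber markers summed to 1494 CPM ± 606 (SD, n = 32) in females and 835 CPM ± 357 (SD, n = 31) in males, and with the slow myofiber score as a covariate the call of Myf6 alone was left (Mef2a -0.16, adjusted p = 0.177, and Myog 0.33, adjusted p = 0.127 in edgeR).

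Mef2a and Mef2d share exon bases with genes on the opposite strand, Mef2a with Lysmd4 (302 bp) and Mef2d with 1700113A16Rik (531 bp). Lysmd4 had 8860 counts in all against 139863 for Mef2a, and 1700113A16Rik 366 against 53103 for Mef2d. Since the strand setting of the counting was not given in the sources used here, reads of these stretches could belong to either gene.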

How the data were processed

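RNA from gastrocnemius of 64 mice was sequenced from stranded mRNA libraries. Per the submitters' processing notes, STAR, featureCounts and mm10 were used (versions and strand setting not given in the sources used here), and the authors deposited raw read counts per gene, neither normalized nor filtered. Groups, sexes and mouse numbers came from the sample labels. The library of mouse 44 was left out, as in the study.

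In R 4.3.3, edgeR 4.0.16 kept 15241 genes by filterByExpr (minimum count 10), scaled libraries by TMM and fitted robust quasi-likelihood models of group plus sex over 63 libraries, with Benjamini-Hochberg adjustment per comparison, calling genes at an adjusted p under 0.1. CPM used TMM-scaled library sizes, and log2 CPM a prior count of 2. Correlations were tested by 100000 two-sided permutations (scipy 1.17.1). Gene identifiers were matched to GENCODE M21 (GRCm38, 55141 of 55401). Promoter windows are RefSeq's (GRCm38.p6, 250 bases before to 50 after a start), found for 6 of 8 members, and the MEF2 core was added after the Myog window had been read.

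The members, gene lists and block of mouse numbers were chosen with earlier results of these data known. All members were named, as were listed genes called in an averaged comparison (at most 4 by p per list) and the 3 genes most like each member. Some listed genes are not reported here. Genes named beyond this rule as examples were chosen after their values were seen. Separate mice were the replicates. After the main fit, the model was also run on counts simulated from the gene means and spread of that fit. Only a difference by genotype was planted in them, and differences by sex or block were not simulated. Alternatives are given in the closing section.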

Additional observations from a re-analysis of the deposited data

Results flagged for a closer look

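Of 64 sets of values, 1 for each member in each group, 3 had a mouse far above the rest of its group, and chance alone would flag about 1 in 20. In sedentary fl/fl mice at ZT3, mouse 5 had 9.80 CPM of Myod1, and the next highest had 5.42 CPM. In exercised fl/fl mice at ZT3, mouse 50 had 8.38 CPM of Myod1, and the next highest 4.98 CPM. In exercised HIF1α KO mice at ZT3, mouse 23 had 7.41 CPM of Myog, and the next highest 4.68 CPM. All 3 were ZT3 mice. Both genes were higher at ZT15, so any high value at ZT3 lies toward the ZT15 values.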

How the results depend on the processing

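Over the alternative models that tested them, the time-of-day difference of Myod1 (1.47 to 1.502, log2) and Myog (0.65 to 0.70) passed in 9 of 9, the exercise difference of Myf6 (0.34 to 0.36) in 10 of 10 and that of Pax7 (-0.48 to -0.39) in 8 of 9. A minimum of 10 counts in every library removed Myod1, Myog, Myf5 and Pax7 from testing, which left 0 members called by time of day, averaged or in any combination, and 1 by exercise. Members called by exercise were also 1 with the slow myofiber score and at an adjusted p under 0.05. Members called by genotype fell to 0 with all 64 libraries, without the sex term, with RLE size factors, without a filter, with at least 10 counts, with the block of mouse numbers, with the mitochondrial rRNA share, with the slow myofiber score, without libraries under 5000000 counts and at an adjusted p under 0.05. By time of day, sedentary fl/fl mice had 1 call without the sex term, without a filter, with the compared groups alone and at an adjusted p under 0.05, exercised fl/fl mice had 2 with DESeq2 1.42.0 and with the compared groups alone, and exercised KO mice had 2 with the block and with the compared groups alone. Members called by exercise were 1 in fl/fl mice at ZT15 with DESeq2 and 1 in KO mice at ZT3 with the mitochondrial rRNA share, and 1 member was called by sex with the slow myofiber score. Over all genes, calls by time of day rose from 1222 to 2030 and those by exercise from 433 to 669 with the block, and calls by genotype fell from 1259 to 778 without a filter and to 695 at an adjusted p under 0.05. Small differences changed sign in 12 cases, none of them a call: with the slow myofiber score, sex in Myod1 (-0.064), Myf5 (0.027), Pax7 (0.12) and Mef2d (0.067) and exercise in Mef2a (0.024) and Mef2d (0.031), without libraries under 5000000 counts exercise in Mef2a (0.014) and Mef2d (0.021), with the mitochondrial rRNA share time of day in Mef2a (-0.016), genotype in Mef2d (0.033) and sex in Mef2d (0.017), and with the block genotype in Mef2d (0.060). Except where fewer genes were tested or the threshold was stricter, the cause was not tested. No paired analysis was possible because each mouse had its own number and groups share none. Depth limited Pax7 and Myf5 most, with counting errors of 23.7% and 19.3% of the mean.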

Other observations

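With group, sex and block of mouse numbers removed, 4 of 28 pairs of members passed an adjusted permutation p under 0.1 by Pearson's r, and 2 of these had not passed by r before removal, though both had by Spearman's rho. Mef2d and Myf6 had r = -0.36 and rho = -0.33 (permutation p = 0.00356 and 0.00938, adjusted p = 0.0297 and 0.0875), and r was -0.39 without the 2 mice farthest from the median. Before removal the adjusted p was 0.215 by r and 0.0823 by rho. Mef2d and Pax7 had r = 0.36 and rho = 0.33 (permutation p = 0.00424 and 0.00812, adjusted p = 0.0297 and 0.0875), and r was 0.32 without the 2 farthest. Before removal it was 0.192 by r and 0.0432 by rho (adjusted permutation p). Mef2d also moved with the mitochondrial rRNA share, and the part of that share in both relations was not tested.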
